A study of Arabidopsis thaliana with 9 samples.

Results

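Binding of the Arabidopsis NAC transcription factor NAC103 was examined at 10 genes of leaf senescence and chlorophyll breakdown, out of 27444 nuclear protein-coding genes. The rule lists them by name and uses no measured value, but the list was drawn up with earlier results of these data known. They are 6 genes of chlorophyll breakdown (NYE1, AT4G22920; NYE2, AT4G11910; NYC1, AT4G13250; NOL, AT5G04900; PPH, AT5G13800; PAO, AT3G44880), the senescence-associated genes SAG101 (AT5G14930) and SAG12 (AT5G45890), and the NAC regulators ORE1 (NAC092, AT5G39610) and NAP (NAC029, AT1G69490). For each gene all peaks that overlapped the gene or the 1000 bp on either side of it were taken, a stretch called the window here. All 10 loci were found in the gene table, where PAO stands as ACD1 and ORE1 as NAC6.

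Chromatin immunoprecipitation (ChIP) was made from whole 5-day-old seedlings of the genotype 35S:NAC103-GFP, in which the strong 35S promoter drives a NAC103-GFP fusion in most cell types. They had been held in 20 µM MG132, a proteasome inhibitor, for 24 h, so that every ChIP sample and its input carried both the transgene and the inhibitor. In DNA affinity purification (DAP), NAC103-Halo was put on naked genomic DNA of untreated Col seedlings, also 5 days old. The ChIP samples and their inputs were fixed with 1% formaldehyde, which is not listed for the DAP samples. There were 3 ChIP replicates, each with its own input, and 2 DAP replicates that shared 1 input. No ChIP from plants without the fusion and no expression data were used here. Whether replicates were separate cultures is not given in the labels, and their spread may be technical.

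When a leaf ages, the plant takes its chlorophyll apart in a fixed order and moves nitrogen out of the chloroplast. NYC1 and NOL, the chlorophyll b reductases, start the conversion of chlorophyll b to chlorophyll a, NYE1 and its homolog NYE2 remove the magnesium, PPH cuts off the phytol tail, and PAO opens the ring, after which the products are no longer green. ORE1 and NAP are transcription factors that promote leaf senescence, and ORE1 is known to act on genes of this pathway. SAG12 encodes a cysteine protease and is the classic marker of senescing leaves, and SAG101 encodes a protein of senescence that also works with EDS1 in immunity. The seedlings measured here were young.

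The 5 peak lists differed in length. On the nuclear chromosomes there were 4187 peaks in ChIP replicate 1, 14318 in replicate 2 and 17074 in replicate 3, and 20746 and 20962 in the DAP lists. A window held a peak for 17% of all coding genes in ChIP replicate 1, 50.8% in replicate 2, 59.7% in replicate 3, 64.4% in DAP replicate 1 and 64.7% in DAP replicate 2. A peak near a gene was therefore common in 4 of the 5 lists. Longer genes have longer windows: a ChIP peak in at least 2 lists was found for 51% of genes longer than the median span of all coding genes and for 37.7% of the others.

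Under the rules for replicates given next, peaks at the 10 genes were about as frequent as at other genes. ChIP peaks in at least 2 of the 3 lists were found at 4 genes, NYE1, NYE2, PPH and SAG101, against 44.3% of all coding genes. DAP peaks in both lists were found at 7 genes, NYE1, NYC1, PPH, PAO, SAG101, ORE1 and NAP, against 59.9%. The 3 genes with peaks in both assays were NYE1, PPH and SAG101, against 28.2%. Without ChIP replicate 2, or without replicate 3, the genes in both remaining ChIP lists were NYE1, PPH and SAG101, against 16.3% and 14.9% of all coding genes. These 3 genes also had a peak in all 3 ChIP lists, not always at the same site, against 14.6%. With DAP peaks in both lists required as well, the count stayed at 3, against 9.5%. By single lists, 3 genes had a peak in ChIP replicate 1, 4 in replicate 2 and 9 in replicate 3, and the same 7 genes had one in either DAP list. ORE1 was the gene without a peak in ChIP replicate 3. NYC1, NOL, PAO, SAG12 and NAP had ChIP peaks in replicate 3 only.

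**Figure D1:**
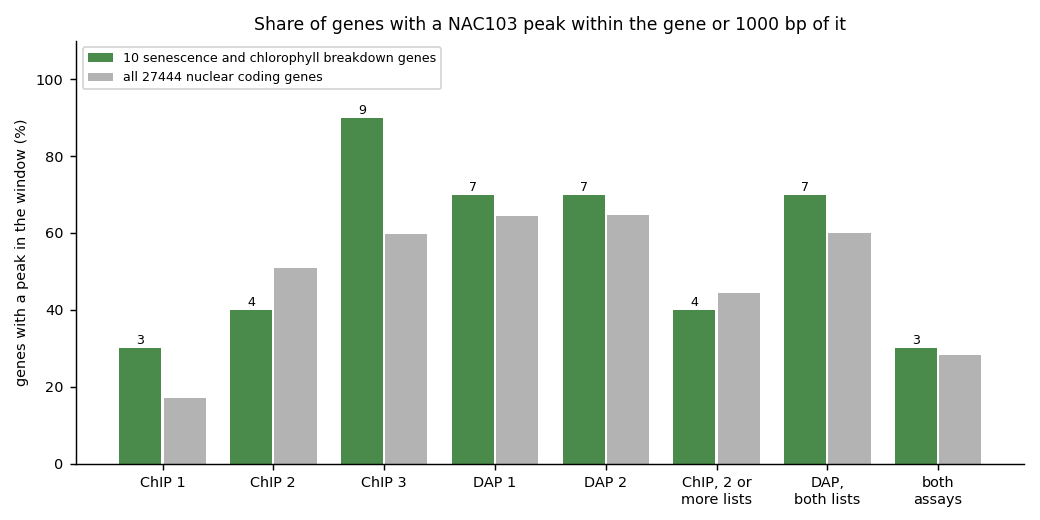
Percent of genes with a peak in the window, for the 10 genes (green, with the number of genes above the bar) and for all nuclear coding genes (grey), in each list and under the rules for replicates. ChIP replicate 3 held a peak at 9 of the 10 genes against 59.7% of all genes, while the rule of at least 2 ChIP lists gave 4 genes against 44.3%.

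The chlorophyll breakdown enzymes and the NAC regulators were set side by side. Of the 6 enzyme genes, 3 had a ChIP peak in at least 2 lists, against 44.3% of all coding genes, and 4 had a DAP peak in both lists, against 59.9%. The enzyme counts thus lay near the shares of all genes. Of the 2 NAC genes, 0 had a ChIP peak in at least 2 lists and both had a DAP peak in both lists, against the same shares. The 6 enzyme genes held 33 peaks over the 5 lists, 11 of them at PPH, and the 2 NAC genes held 6. Their windows also differed in length, 3.898 to 5.081 kb for the enzymes and 3.435 to 3.514 kb for the NAC genes. A site found in several lists entered these totals once per list. Peaks per window were not counted for all coding genes, so the totals cannot be read as a trait of either group. No difference between enzymes and regulators was tested.

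In all, 49 peaks lay in the 10 windows, 29 from ChIP and 20 from DAP. All folds given here are the authors' fold enrichment of the summit over the local background, as deposited in the lists. They ran from 1.51 to 4.02 in ChIP and from 1.70 to 7.23 in DAP. Below the median fold of their own list lay 15 of the 29 ChIP peaks and 14 of the 20 DAP peaks. A median splits all peaks of a list evenly, so the ChIP count was near that of any peaks. The 20 DAP peaks formed 10 sites, 9 of them found in both replicates, so most sites entered the DAP count from both lists. No such count was made for the windows of all coding genes. The files give no read counts. If the fold was formed with 1 added to pileup and background, the summit pileup worked out from fold and p-value was 36 to 89 reads for the ChIP peaks and 81 to 348 reads for the DAP peaks. The intervals in parentheses below are exact 95% Poisson intervals for that pileup, divided by the background. They cover counting error only and were taken at summits chosen for being high.

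**Figure D2:**
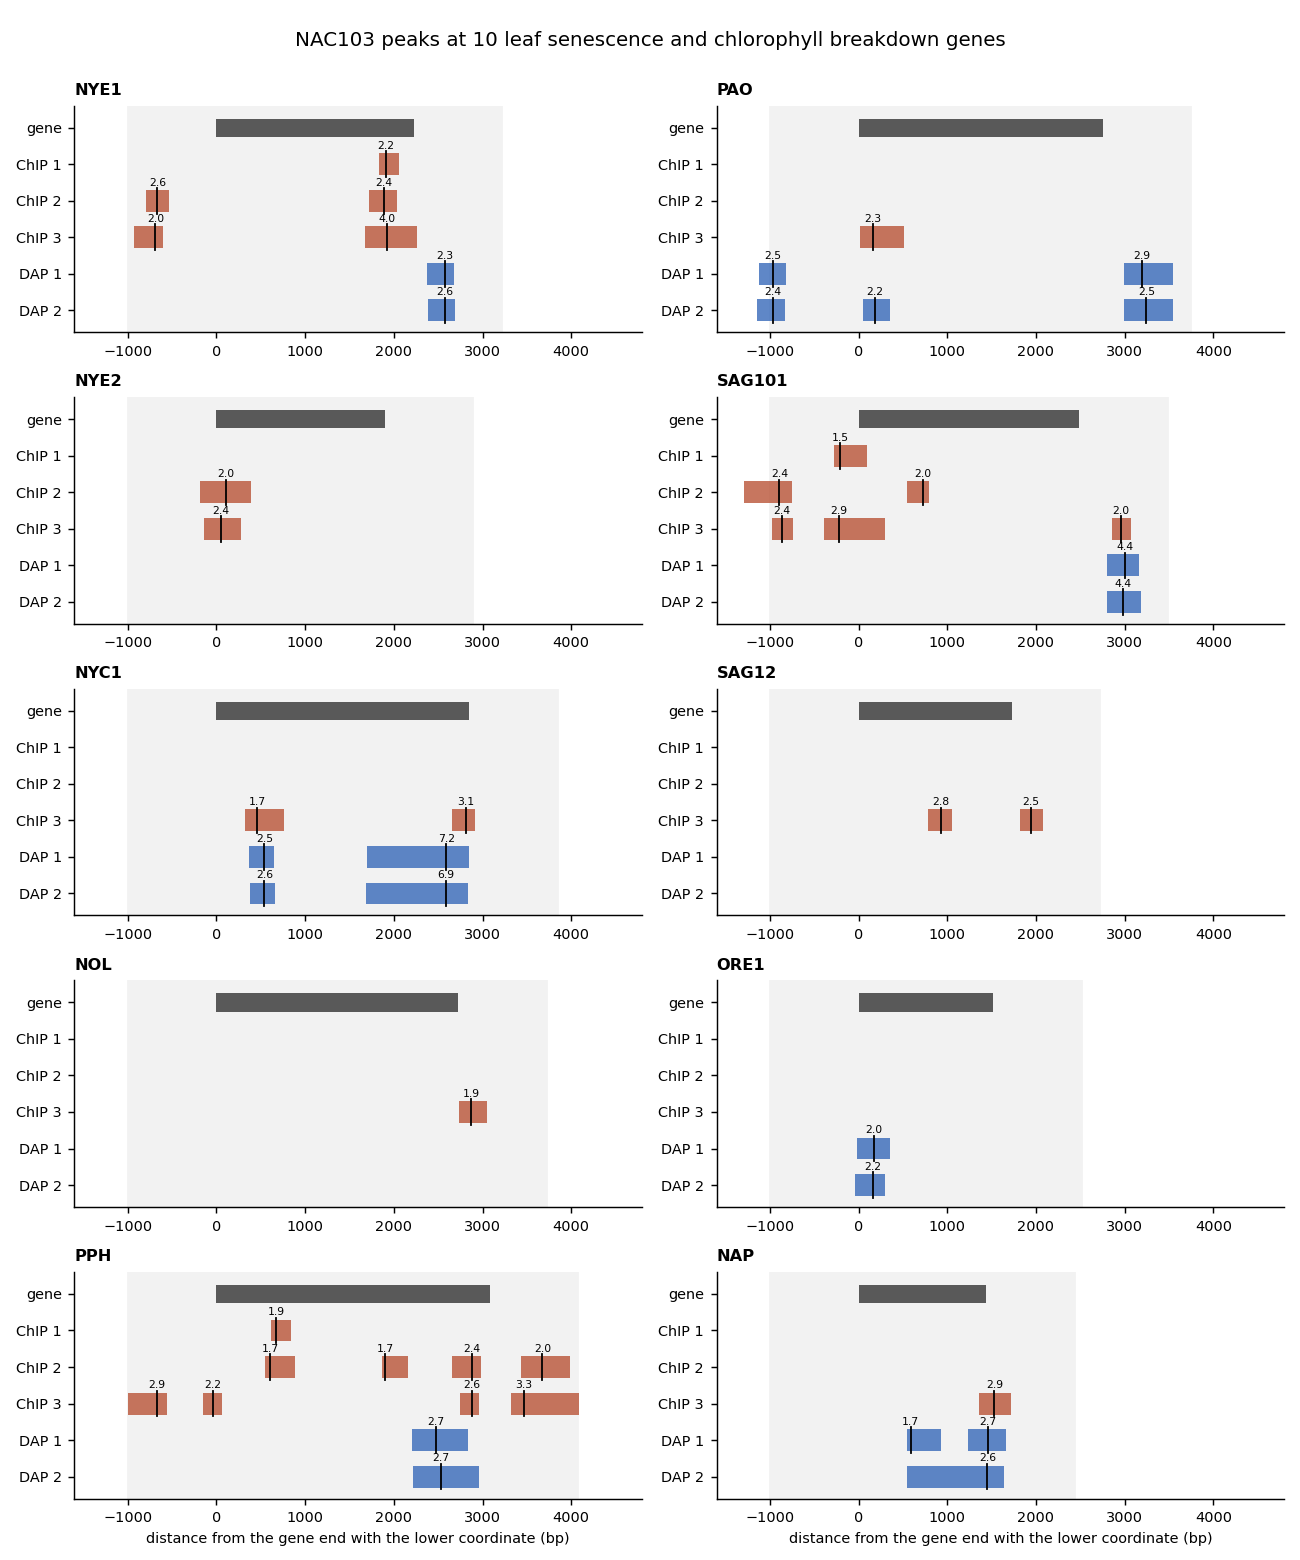
Peaks in the window of each gene (light grey), plotted against the distance from the gene end with the lower coordinate in bp, with the gene as a dark bar. ChIP peaks are red, DAP peaks blue, black ticks are summits and the numbers are the authors' folds. NYE1 has a ChIP site shared by all 3 replicates inside the gene and a DAP site beyond the gene, and ORE1 has DAP peaks only.

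NYE1, the magnesium-removing enzyme, was alone among the 10 genes in having a ChIP site shared by all 3 replicates. The site lay on chromosome 4, 12018099 to 12018681 (TAIR10), with summits 303 to 331 bp inside the gene end with the higher coordinate. Its folds were 2.18 (1.72 to 2.73) in replicate 1, 2.35 (1.78 to 3.05) in replicate 2 and 4.02 (3.24 to 4.93) in replicate 3, and its 3 summits lay within 28 bp of each other. In replicate 3 this peak stood at percentile 94.3 of fold in its list, the highest of any ChIP peak at the 10 genes in that list.

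The DAP site of NYE1 was at another place. It covered 12018794 to 12019108, with folds of 2.30 and 2.57 in DAP replicates 1 and 2, and its summits lay 351 and 350 bp outside the gene. Those summits fell inside the neighbouring gene PYR4 (AT4G22930). The gap to the nearest ChIP peak was 112 bp, and the summits were 654 bp apart. A further ChIP site in replicates 2 and 3, with folds of 2.60 and 2.00, had its summits inside FZR2 (AT4G22910), the neighbour on the other side. NYE1 thus counted as bound in both assays without a shared site.

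NYE2, the homolog of NYE1, had a single ChIP site and no DAP peak. The site, on chromosome 4 at 7155968 to 7156539, spanned the gene end with the lower coordinate. Its fold was 1.99 (1.48 to 2.62) in replicate 2 and 2.45 (1.82 to 3.22) in replicate 3, and replicate 1 had no peak in the window. The nearest other coding gene lay 1831 and 1886 bp from these summits. The nearest DAP peak was 4423 bp from the gene in replicate 1 and 4441 bp in replicate 2.

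NYC1, a chlorophyll b reductase, carried the strongest DAP peak of the 10 genes. The DAP site on chromosome 4, 7685847 to 7687006, had folds of 7.23 (6.50 to 8.03) and 6.90 (6.20 to 7.67), at percentiles 97.3 and 96.7 of their lists. Its interval in each list lay above that of SAG101, the gene with the next highest DAP fold. The summits of the DAP replicates were 1 bp apart, 258 and 259 bp inside the gene end with the higher coordinate. The nearest other coding gene was 4126 and 4125 bp away from them.

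A second NYC1 site had DAP folds of 2.51 and 2.57, with both summits at position 7684698. ChIP peaks overlapped both DAP sites in replicate 3 only, with folds of 3.14 (2.42 to 4.0) at the stronger site and 1.69 (1.20 to 2.32) at the weaker one. The ChIP and DAP summits were 219 or 220 bp apart at the stronger site and 80 bp apart at the weaker one. ChIP replicates 1 and 2 had their nearest peaks 25628 and 9433 bp from the gene. Near the weaker site, 3 small nucleolar RNA genes lay within 1000 bp of the DAP summits.

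NOL, which encodes the other chlorophyll b reductase, had 1 peak in all. It came from ChIP replicate 3, on chromosome 5 at 1437512 to 1437823, with a fold of 1.93 (1.39 to 2.62). Its summit lay 148 bp outside NOL and inside the neighbour AT5G04910. The nearest DAP peaks lay 1189 and 1173 bp from the gene, just outside the window, as did a ChIP replicate 2 peak at 1327 bp. The pair of chlorophyll b reductase genes therefore differed in DAP, with peaks inside NYC1 in both lists and none in the window of NOL.

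PPH, the pheophytinase, held the most peaks, 11, in the longest window. The site at 4454387 to 4454712 on chromosome 5 was found in ChIP replicates 2 and 3, with folds of 2.35 (1.79 to 3.04) and 2.61 (1.96 to 3.39), and its summits were 1 bp apart. It overlapped a DAP site at 4453941 to 4454689, with folds of 2.65 and 2.71. PPH was the single gene of the 10 where a ChIP site of at least 2 replicates overlapped a DAP site of both replicates, which held for 12.2% of all coding genes. The ChIP and DAP summits of this overlap were 351 to 405 bp apart, and the peaks shared 91 to 303 bp.

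The other ChIP peaks of PPH were spread along the gene. Replicates 1 and 2 shared a site at 4452286 to 4452623 with folds of 1.87 and 1.75, where replicate 3 had no peak. A peak pair of replicates 2 and 3 beyond the gene, with folds of 1.97 and 3.33, had its summits inside the neighbour AT5G13810. A replicate 3 peak of fold 2.89 on the other side had its summit nearer to AGL15 than to PPH. On that same side, replicate 3 had a peak of fold 2.15 with its summit 36 bp from PPH and 739 bp from AGL15. Replicate 2 alone had a peak of fold 1.69 inside the gene, at 4453596 to 4453893.

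PAO, the enzyme that opens the ring, had DAP sites on both flanks, with summits inside the neighbouring genes. The folds were 2.55 and 2.41 at 16382451 to 16382778 on chromosome 3, with summits inside AT3G44870. They were 2.88 and 2.47 at 16386584 to 16387136, with summits inside RPL9 (AT3G44890), a ribosomal protein gene. Inside PAO itself, ChIP replicate 3 and DAP replicate 2 each had 1 peak near the gene end with the lower coordinate, with folds of 2.30 (1.70 to 3.06) and 2.17 (1.78 to 2.61). These summits were 17 bp apart, the closest pair of ChIP and DAP summits at the 10 genes. Each rested on a single replicate.

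SAG101 held 8 peaks. Its DAP site on chromosome 5, 4831298 to 4831682, had the highest DAP folds after NYC1, 4.44 (3.88 to 5.05) and 4.41 (3.87 to 5.01). The DAP summits lay 523 and 501 bp beyond the gene, and 78 and 100 bp from AT5G14940. ChIP replicate 3 had a peak of fold 2.01 (1.45 to 2.72) there, with its summit 48 or 26 bp from those of DAP. The ChIP sites of at least 2 lists were on the opposite side of the gene. One, in replicates 1 and 3, had folds of 1.51 and 2.86, and the other, in replicates 2 and 3, had folds of 2.40 and 2.35. The replicate 1 peak was weak, with a −log10 q of 1.44. The summits of both sites fell inside the neighbour AT5G14920. ChIP replicate 2 also had a peak at 4829045 to 4829290, of fold 2.02 (1.51 to 2.64), with its summit 729 bp inside SAG101.

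SAG12, the protease marker of senescing leaves, had no DAP peak in its window and ChIP peaks in replicate 3 alone. The peak inside the gene, on chromosome 5 at 18614021 to 18614292, had a fold of 2.79 (2.12 to 3.61). A second peak, of fold 2.50 (1.87 to 3.28), had its summit inside APG7 (AT5G45900), the autophagy gene next to it. In ChIP replicates 1 and 2 the nearest peaks were as far as 54164 and 22569 bp from SAG12. The nearest DAP peaks lay 1214 and 1246 bp from the gene.

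Neither NAC regulator had a ChIP peak in at least 2 lists. They differed in ChIP replicate 3 alone, a list with a peak for 59.7% of all coding genes. ORE1 had no ChIP peak in its window in any replicate, and the nearest ChIP peaks lay 9091, 3261 and 2259 bp from the gene in replicates 1, 2 and 3. Its DAP site on chromosome 5, 15858362 to 15858751, lay at the gene end with the lower coordinate, with folds of 1.97 (1.60 to 2.41) and 2.17 (1.78 to 2.61). These were the lowest DAP folds among the strongest peaks of the 7 genes with a DAP peak. The nearest other coding gene lay 3376 and 3364 bp from those summits. DAP peaks in both lists without any ChIP peak were found for 16.6% of all coding genes.

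NAP had DAP peaks at the gene end with the higher coordinate, on chromosome 1, with folds of 2.69 (2.25 to 3.20) and 2.63 (2.20 to 3.11) and summits 27 and 19 bp outside the gene. ChIP replicate 3 had a peak of fold 2.94 (2.25 to 3.78) at 26123442 to 26123795, and its summit lay 71 and 79 bp from the DAP summits. ChIP replicates 1 and 2 had no peak in the window, with the nearest at 4494 and 2332 bp. DAP replicate 1 listed a separate weak peak inside the gene, of fold 1.70 (1.35 to 2.11), where DAP replicate 2 gave 1 wide peak over both positions.

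**Figure D3:**
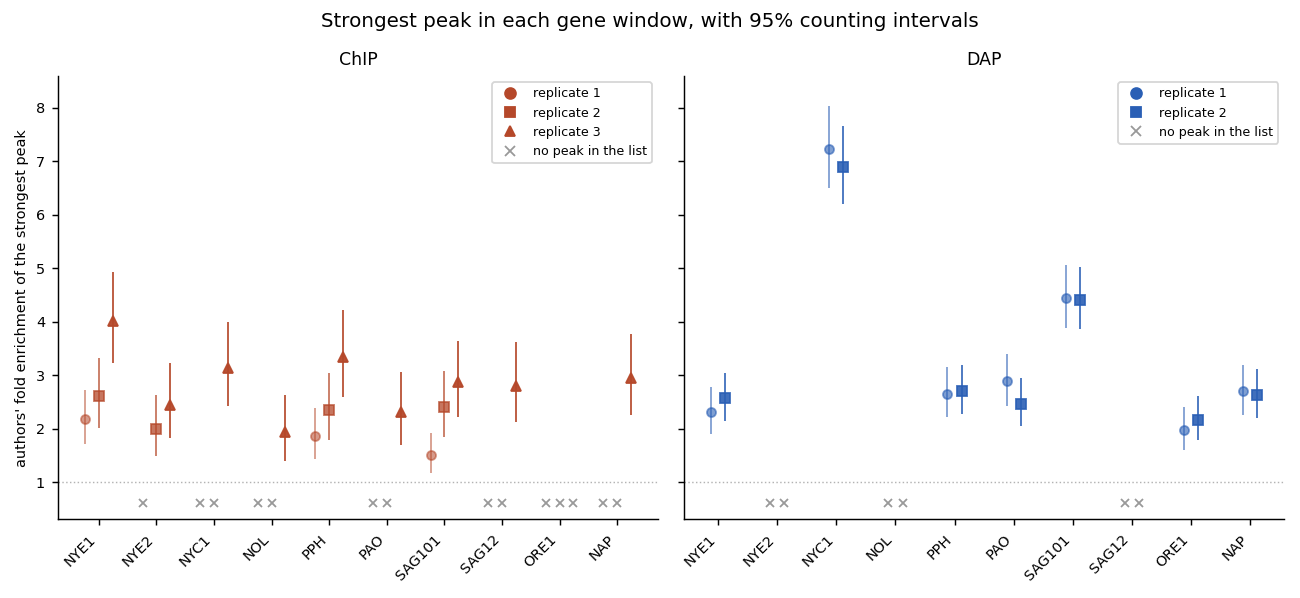
The authors' fold of the strongest peak in each window, by list, with 95% counting intervals as bars, for ChIP (left) and DAP (right). The summit of a strongest peak can lie inside a neighbouring gene, as for NYE1 in ChIP replicate 2, where it lies in FZR2. Grey crosses mark lists with no peak in the window and carry no value. NYC1 stands at 7.23 and 6.90 in DAP above the other genes, and NYE1 at 4.02 in ChIP replicate 3.

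The sites and summits in the 10 windows were also counted. Of the 20 ChIP sites formed by merging overlapping ChIP peaks, 12 came from 1 replicate, 7 from 2 and 1 from all 3. Of the 10 DAP sites, 9 were found in both replicates. The summit of 20 of the 49 peaks was nearer to another coding gene than to the gene it was counted for, and 16 summits lay inside such a neighbour. These counts of sites and summits were not made for the windows of all coding genes. They can therefore not be read as traits of the 10 genes. When only peaks with the summit no nearer to another coding gene were counted, an alternative chosen after the positions were seen, the genes with a ChIP peak in at least 2 lists were NYE1, NYE2 and PPH. Those with a DAP peak in both lists were then NYC1, PPH, ORE1 and NAP, and PPH alone had both. The matching shares of all coding genes were 29.7%, 45.3% and 15.7%.

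ChIP and DAP peaks overlapped at 5 of the 10 genes, NYC1, PPH, PAO, SAG101 and NAP, against 25.1% of all coding genes. Of the 13 overlapping pairs of peaks, 11 involved ChIP replicate 3, the longest ChIP list, and the median distance between their summits was 80 bp. At NYC1, PAO, SAG101 and NAP the overlap rested on ChIP replicate 3 alone.

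Related genes of the same processes were counted in the same way, from lists written for this comparison. Of 9 other senescence-associated genes, all 9 had a ChIP peak in at least 2 lists, against 44.3% of all coding genes, and 4 had a DAP peak in both, against 59.9%. SAG21, a late embryogenesis abundant protein gene, had ChIP folds of 3.06, 4.66 and 3.25 and no DAP peak, and was named for its fold after its values were seen. SEN4 (XTH24), a cell wall enzyme gene, had folds of 2.10, 3.58 and 3.09 in ChIP and 3.36 and 3.22 in DAP. SAG29, a sugar transporter gene, and SAG13 and SAG20 were the others in both assays. Without ChIP replicate 3 the count was 5 of 9, against 14.9% of all coding genes.

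Other regulators of senescence had ChIP peaks in at least 2 lists at 12 of 15 genes, DAP peaks in both lists at 10, and both at 9, against 44.3%, 59.9% and 28.2% of all coding genes. The median span of these regulators was 2926 bp, against 2078 bp for all coding genes. Among coding genes longer than 2078 bp the shares were 51%, 66.2% and 34.8%. WRKY6 led with folds of 2.10, 3.25 and 4.36 in ChIP and 4.13 and 3.66 in DAP, followed by EIN3, the main transcription factor of ethylene signalling, by PIF4, a light-signalling factor, and by ORE7. EIN3 had folds of 1.92, 2.51 and 2.55 in ChIP and 3.79 and 4.02 in DAP. The ChIP count was 9 of 15 without replicate 2 and 9 without replicate 3, against 16.3% and 14.9% of all coding genes.

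Among 10 other NAC genes of senescence, 7 had a ChIP peak in at least 2 lists, 7 had a DAP peak in both and 5 had both, against the same shares of all coding genes. NAC087 had folds of 3.27 and 2.14 in ChIP replicates 2 and 3 and 8.02 and 7.72 in DAP. NAC046, a regulator of chlorophyll breakdown, had folds of 1.90, 2.57 and 2.80 in ChIP and 4.23 and 4.24 in DAP, and RD26 and ATAF1 followed. ORS1, the close relative of ORE1, had DAP folds of 2.59 and 2.71 and no ChIP peak in any list. Such a pattern, at 1 of the 10 genes, was found for 16.6% of all coding genes. NAC019 and NAC055 went the other way, with no DAP peak in either list. Their ChIP folds were 2.49, 2.74 and 3.72 for NAC019 and 2.41, 2.67 and 4.12 for NAC055. ORS1, NAC019 and NAC055 were named after their values were seen. Without ChIP replicate 2 or 3 the ChIP count fell to 4 of 10, against 16.3% and 14.9%.

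The other genes of chlorophyll breakdown had a ChIP peak in at least 2 lists in 5 of 9 cases, a DAP peak in both lists in 7 and both in 4, against 44.3%, 59.9% and 28.2% of all coding genes. ACD2, the red chlorophyll catabolite reductase that acts directly after PAO, had DAP folds of 9.91 and 9.37 and ChIP folds of 2.56 and 4.34 in replicates 2 and 3. HCAR, which completes the step from chlorophyll b to chlorophyll a, had DAP folds of 3.81 and 4.34 and ChIP folds of 2.13 and 2.45 in the same replicates. CLH1, a chlorophyllase, and CYP89A9 were the others. The ChIP count was 2 of 9 without replicate 2 and 2 of 9 without replicate 3, against 16.3% and 14.9% of all coding genes. With summits no nearer to another coding gene, the ChIP counts were 8 of 9 for the senescence-associated genes, 11 of 15 for the regulators, 7 of 10 for the NAC genes and 3 of 9 for the breakdown genes, against 29.7% of all coding genes. No list was tested against another or against all genes.

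**Figure D4:**
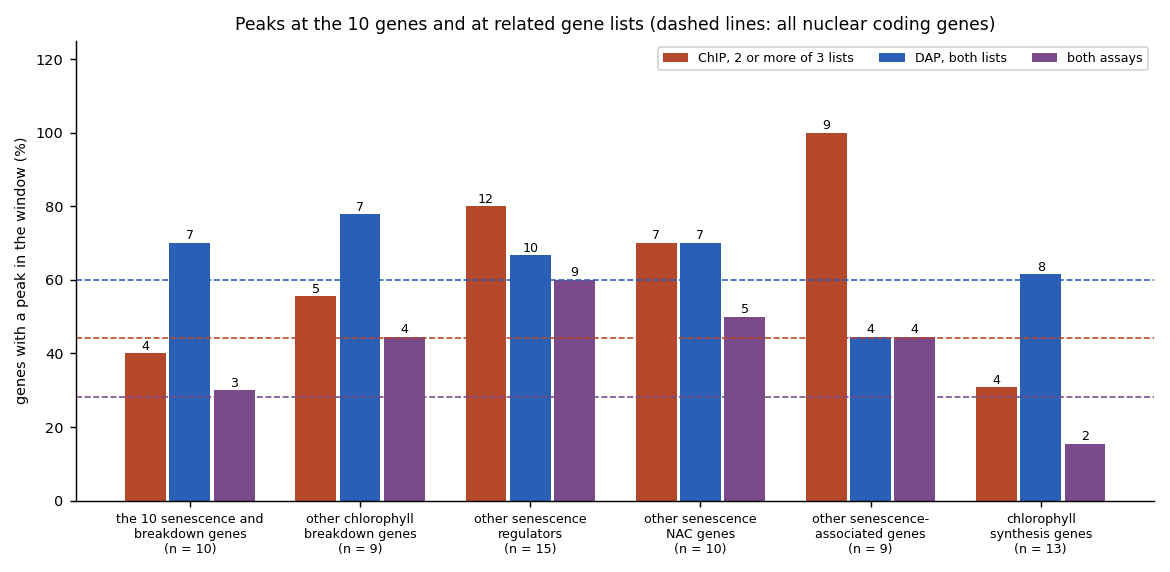
Percent of genes with a ChIP peak in at least 2 lists (red), a DAP peak in both lists (blue) or both (purple), for the 10 genes and for 5 related lists, with the number of genes above each bar. Dashed lines give the share of all nuclear coding genes, 44.3%, 59.9% and 28.2%. The other senescence-associated genes stand at 9 of 9 in ChIP and the chlorophyll synthesis genes at 4 of 13.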

How the data were processed

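The submitters' processing notes name BWA, MACS2 and the build TAIR10, without versions. Each of the 5 deposited lists holds the peaks of 1 replicate over its input, per the labels. The columns deposited by the authors are a score, the fold or ratio of summit to background, −log10 values of the p-value and q-value, and the summit position. The files hold no read counts and the depth of each library is unknown. Peaks on organelle genomes, 2 to 49 per list, were left out.

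Gene spans came from a RefSeq gene table of TAIR10.1, without strand or exons, so gene ends are named by coordinate. Its fit was checked by the share of summits 300 bp or less outside a gene end, before and after shifts of 2000 bp either way. The share was above both shifted ones in 15 of 15 pairs of ChIP list and chromosome, and in 7 of 10 DAP pairs, where it was 12.9% to 14.2% against 12.5% to 14.2% shifted, so the DAP lists do not bear on the fit. Peak coordinates are 1-based. A peak counted for a gene when it overlapped the span plus 1000 bp on each side by at least 1 bp. Percentiles rank fold within a list.

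The summit pileup is the whole number that, with 1 added to pileup and background, returns the deposited −log10 p within 0.01. It existed for 99.9% to 100% of 2000 peaks tried per list, against 13.1% to 25.95% after random shifts. The overlap and pileup calculations were tested on simulated data.

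The members and lists were chosen with earlier results of these data known, so no test was made on them. All 10 genes are named. Of each related list, up to 4 genes with peaks in at least 2 ChIP lists and both DAP lists are named, by mean percentile of fold, as are neighbours that hold a summit. All 66 listed loci were found in the table. Alternatives covered stricter q, equal list lengths (4187 peaks), other windows, summits, each replicate left out, and a peak in all 3 ChIP lists. Python 3.11.15, pandas 2.3.3 and SciPy 1.17.1 were used.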

Additional observations from a re-analysis of the deposited data

How the results depend on the processing

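No paired analysis was possible because the results come from counts of peaks and not from a test. Percentages here are of all coding genes under the same rule. With a −log10 q of at least 10, ChIP peaks in at least 2 lists were left at 0 of the 10 genes and 0 enzymes (5.68%). Genes with both assays were then 0 (3.52%). DAP changed less, with 6 of the 10 genes, 4 of the 6 enzymes and 1 of the 2 NAC genes left (51.9%). With the 4187 top peaks per list, DAP counts were 2 genes, 1 enzyme and 0 NAC genes (17%), and 1 gene had both assays (3.28%). With the gene span alone, DAP counts were 4 genes and 2 enzymes (42.3%), and 1 gene had both assays (14%). With summits no nearer to another coding gene, an alternative added after the data were seen, DAP counts were 4 genes and 2 enzymes (45.3%), and 1 gene had both (15.7%). Of the other added rules, 5 genes had overlapping ChIP and DAP peaks of any list (25.1%). Overlapping sites of at least 2 ChIP lists and both DAP lists were found at 1 gene (12.2%). Leaving out single replicates gave 3 to 4 genes, 2 to 3 enzymes and 0 to 0 NAC genes in ChIP. The ChIP share was 42.3% without replicate 1, 16.3% without replicate 2 and 14.9% without replicate 3. In DAP the count was 7 to 7 genes (64.4% to 64.7%). Both assays gave 3 to 3 genes, with shares of 26.9%, 10.5% and 9.71% without ChIP replicates 1, 2 and 3. Without DAP replicates 1 and 2 that share was 30.3% and 30.2%. Of 71 alternative values of the 6 counts above 0, 55 stayed within 1.5 times the reported one. A count that held could do so while the share of all genes fell, as at a −log10 q of at least 5, where the ChIP count was 3 of 10 and the share 21.1%. The count of NAC genes with a ChIP peak was 0 and could not fall. Fold and pileup give no library depth, and an absent peak shows no absence of binding.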

Other observations

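Genes of chlorophyll synthesis, the opposite pathway, were counted in the same way. Of 13 such genes, 4 had a ChIP peak in at least 2 lists, 8 had a DAP peak in both lists and 2, CAO and CHLM, had both, against 44.3%, 59.9% and 28.2% of all coding genes. In folds, CAO, the enzyme that makes chlorophyll b, stood at 2.16 and 2.78 in ChIP replicates 1 and 3 and at 3.30 and 3.26 in DAP. CHLM stood at 1.83 and 2.43 in ChIP replicates 2 and 3 and at 3.23 and 3.38 in DAP. Without ChIP replicate 3 the ChIP count was 0 of 13, against 14.9% of all coding genes. It was 2 without replicate 1 and 2 without replicate 2, against 42.3% and 16.3%. Named after their values were seen, PORB had DAP folds of 7.36 and 7.34 and CHLI1 of 6.38 and 6.50. CHLI1 had no ChIP peak in any list, and PORB had 1 of fold 2.56 in replicate 3. CRD1 and PORA were also listed in both DAP lists and in no ChIP list. Such a pattern, at 3 of the 13 genes, was found for 16.6% of all coding genes. HEMA1 and CHLD, also named after their values were seen, went the other way, being listed by ChIP without any DAP peak. For HEMA1 the fold was 1.85 in ChIP replicate 1 and 4.54 in ChIP replicate 3. For CHLD it was 2.16 in ChIP replicate 2 and 2.60 in ChIP replicate 3. Peaks in at least 2 ChIP lists and in no DAP list were found for 11.9% of all coding genes.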
